A study of Homo sapiens with 17 samples.

Results

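The results concern the transfection of NKYS cells with EZH2 siRNA, each array set against the control siRNA array that its title names. These are 4 arrays of the 17 in the series: EZH2 siRNA 1 and 2, and their paired controls 1 and 2. NKYS cells are a long-established human lymphoma line of NK-cell origin. The cells behind all 4 arrays were grown in RPMI with fetal bovine serum and 100 IU/mL of interleukin-2, so the controls carried the same cytokine stimulus, and all were electroporated with an siRNA. The sequences of the siRNAs, the hours between transfection and harvest, and whether replicate arrays stem from independent cultures are not given in the sources used here. The 4 arrays of the JAK3 siRNA experiment in the same line (2 transfected with JAK3 siRNA, 2 with its own control) served to estimate the spread between arrays and for a direct comparison of both knockdowns.

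EZH2 is the catalytic subunit of Polycomb repressive complex 2 (PRC2), which methylates histone H3 and keeps genes silent. It works together with the core subunits EED and SUZ12, and EZH1 is its less active paralog. In NK/T-cell lymphoma EZH2 is known for high levels and for supporting growth, in part through genes that it is reported to switch on rather than off. EZH2 is itself a target of the E2F factors that drive the cell cycle.

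The labelled cell type was checked on its markers. Of the 11 NK/T-line markers, 10 lay above the lower quartile of all probe sets on all 4 arrays. Granzyme B (GZMB) was the brightest, with signals of 5142 and 5313 with EZH2 siRNA against 2835 and 5473 with control siRNA, and the exception was FCER1G at 31.1 to 37.3. CD2, a lymphocyte surface protein, had only 35.5 to 37.4. Of the B-cell markers 5 of 7 lay above that quartile, with no signal over 76.1; of the monocyte markers 4 of 9 did, of the T-cell markers 7 of 9, and of the epithelial and fibroblast markers 7 of 10. The summed signal of the NK/T-line markers was 11690 and 11390 with EZH2 siRNA against 7543 and 10780 with control siRNA, so control 1 was the lowest array. Summed signals of the 4 lists for other cell types were slightly higher with EZH2 siRNA: 357 and 354 against 350 and 345 for B cells, 525 and 552 against 474 and 507 for monocytes, 803 and 781 against 736 and 692 for T cells, and 662 and 653 against 634 and 623 for epithelial cells and fibroblasts. Of the tested members of these 4 lists 0 passed the limma test described below, and 3 had an unadjusted p under 0.05. The smallest p belonged to CSF1R, a macrophage receptor, with 218 and 240 with EZH2 siRNA against 160 and 206 with control siRNA (adjusted p = 0.0556, limma), and to CD4, with 420 and 376 against 342 and 311 (adjusted p = 0.0693, limma). In the other lists it belonged to CD79A of B cells (adjusted p = 0.413, limma) and to keratin 18, KRT18, with 172 and 149 against 131 and 146 (adjusted p = 0.281, limma). The part of these shifts in other results was not tested.

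The arrays of pair 1 stood further apart than those of pair 2. Over the 14466 genes tested, log2 signals correlated with r = 0.9884 between EZH2 siRNA 1 and control 1, and with r = 0.9955 between EZH2 siRNA 2 and control 2. The arrays of the JAK3 experiment correlated with r = 0.9971 between both JAK3 siRNA arrays and r = 0.9975 between their controls. Control 1 and control 2 reached 0.9927, and both EZH2 siRNA arrays 0.9945. Every result is therefore given for each pair, and the text calls a gene higher or lower only where the mean change of both pairs passed the test. That test was limma on log2 signal with the pair as a block, two-sided, with Benjamini-Hochberg adjustment over 14466 genes and a threshold of 0.05. Changes are log2 of the signal with EZH2 siRNA over that with control siRNA. Of the 3 residual degrees of freedom 2 came from the JAK3 experiment, whose arrays were the quieter ones: limma's array weights were 1.545 to 1.56 there and 0.644 for each array of the EZH2 experiment. To that extent adjusted p-values can be too small, most of all where pairs were tested singly or against each other.

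The targeted transcript was lower on both EZH2 siRNA arrays. EZH2 had signals of 501 and 489 with EZH2 siRNA, against 926 and 691 with control siRNA. It was left at 54.1% of the control signal in pair 1 and at 70.7% in pair 2. The mean log2 change was -0.69 (SE 0.09, adjusted p = 0.0275, limma, 2 pairs). Both EZH2 siRNA arrays also lay below the other 4 siRNA arrays of the series, where EZH2 had 776 and 763 with JAK3 siRNA and 891 and 871 with its control. The log2 changes of -0.89 in pair 1 and -0.50 in pair 2 did not differ past the threshold (difference -0.39, SE 0.12, adjusted p = 0.151, limma). Both siRNA arrays ended at nearly the same level, and the 2 controls differed more than they did. EZH2 ranked 2 among the falls, behind HHLA2. Without array 1 of either group the fit rests on pair 2 alone, where EZH2 had a log2 change of -0.50 and was not called.

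Other subunits of the complex did not pass the test. EED, which binds the methylated histone tail, had 316 and 311 with EZH2 siRNA against 350 and 308 with control siRNA (adjusted p = 0.777, limma). SUZ12, which holds the complex together, had 926 and 953 against 962 and 980 (adjusted p = 0.843, limma). EZH1 had 179 and 141 against 139 and 155, so its change had opposite signs in the pairs. The histone-binding subunits RBBP4 (842 and 960 against 971 and 878) and RBBP7 (1722 and 1873 against 1860 and 1941) moved by at most 0.21 in any pair. JARID2, an accessory subunit that helps recruit PRC2, had the highest change of the list, with 575 and 494 against 360 and 441 (mean log2 change 0.42, SE 0.10, adjusted p = 0.0693, limma). Of the 15 PRC2 subunits and H3 demethylases tested, EZH2 was the 1 called.

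**Figure D1:**
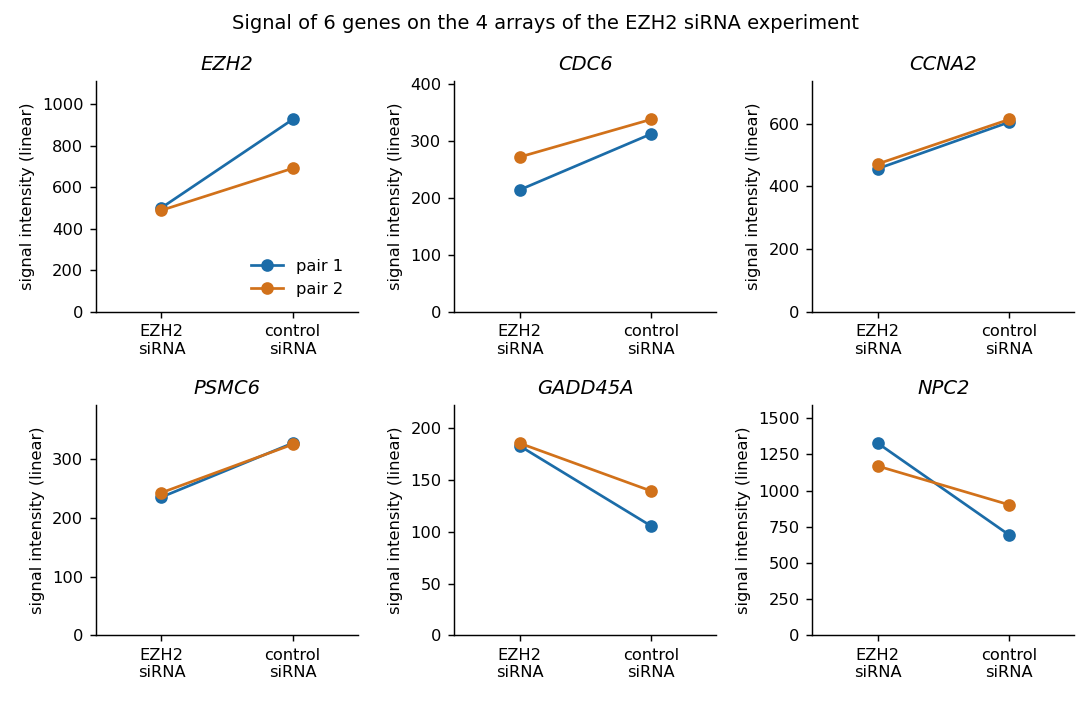
Linear signal intensity (y axis, each starting at 0) of EZH2, CDC6, CCNA2, PSMC6, GADD45A and NPC2 on the EZH2 siRNA and control siRNA arrays, with a line joining the arrays of each pair. The lines of EZH2, CDC6, CCNA2 and PSMC6 show lower signal with EZH2 siRNA in both pairs and those of GADD45A and NPC2 higher signal. These genes were proposed with results of these data in view.

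With EZH2 siRNA 136 genes were called, 0.94% of those tested. Of these, 54 were higher (0.373%) and 82 lower (0.567%); 2253 genes had an unadjusted p under 0.05. The changes were small: fold changes of the calls were 1.26 to 2.04 with a median of 1.35, 20 reached 1.5-fold and 1 reached 2-fold. By annotation 131 calls were protein-coding genes, 3 long non-coding RNAs and 2 small nucleolar RNAs. Of the 14466 genes tested 13460 were protein-coding. The dimmest signal of any call was 48.9, and 0 calls had an array below the lower quartile of its probe sets. The filter already kept only genes with a mean at or above the 30th percentile, so this says little about the calls in particular. All 82 lower genes had both EZH2 siRNA arrays under both controls, which 20.8% of all genes did, and 51 of the 54 higher genes had both over both controls, which 16.6% of all genes did. Set against all 6 other siRNA arrays, 52 of the 82 lower genes lay under every one (8.3% of all genes), and 24 of the 54 higher genes over every one (4.5%). The calls were made from these same arrays, so a separation from the controls is largely built into them and lends them no support.

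The split of higher and lower calls depended on how the arrays were scaled. It was 30 higher and 26 lower after quantile normalization, and 31 higher and 161 lower after each array was centred on its median. All 136 genes kept their direction under both scalings. This says little, because the scalings moved changes by little: the median change of all genes was -0.006 after quantile normalization and -0.032 after centring. With no filter on low signal, with arrays weighted by their quality, or without array 1 of either group, 0 genes were called (limma), and 2511, 1255 and 1639 genes had an unadjusted p under 0.05.

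The largest rise was that of ACP3, prostatic acid phosphatase. ACP3 had signals of 350 and 271 with EZH2 siRNA, against 110 and 207 with control siRNA, a log2 change of 1.67 in pair 1 and 0.39 in pair 2 (mean 1.03, SE 0.20, adjusted p = 0.0444, limma). DNAI3, an intermediate chain of axonemal dynein, followed with 152 and 140 against 64.4 and 103 (mean 0.84, adjusted p = 0.0275, limma). In both genes the EZH2 siRNA arrays lay over all other siRNA arrays, and the rise was larger in pair 1. ARRDC3, an alpha-arrestin that restrains growth-factor receptors and glucose uptake, had 598 and 401 against 237 and 332 (mean 0.81, adjusted p = 0.0496, limma). CES4A, a carboxylesterase, had 355 and 267 against 174 and 190 (mean 0.76, adjusted p = 0.0275, limma).

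Surface receptors were among these rises. IL1R1, the signalling receptor for interleukin-1, had 1025 and 837 with EZH2 siRNA, against 457 and 649 with control siRNA (mean log2 change 0.77, SE 0.14, adjusted p = 0.0341, limma). In the JAK3 experiment IL1R1 had 894 and 815 with JAK3 siRNA and 924 and 847 with its control. The controls of the EZH2 arm were thus the lowest siRNA arrays for IL1R1, as they were for CES4A and for DRAM1, described below. These genes were not among the 24 of 54 higher calls that lay over all 6 other arrays. TNFRSF9, a costimulatory receptor of activated NK and T cells, had 868 and 876 against 406 and 719 (mean 0.69, SE 0.14, adjusted p = 0.0444, limma). The EZH2 siRNA arrays lay close together for TNFRSF9, and the spread was between the controls. PCDH18, a protocadherin of cell adhesion, had 308 and 300 against 184 and 218 (mean 0.60, adjusted p = 0.0275, limma). KRCC1, NAV3 (a neuron navigator) and SIAE (an esterase that acts on sialic acids) completed the 15 largest rises together with genes described below, at mean changes of 0.66, 0.62 and 0.59. The groups overlapped for NAV3, with 149.5 and 203.8 with EZH2 siRNA against 81.25 and 158.6 with control siRNA.

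The largest fall was that of HHLA2, a ligand of the B7 family that T and NK cells recognise. HHLA2 had 68.3 and 70.4 with EZH2 siRNA, against 152 and 89.1 with control siRNA (mean log2 change -0.75, SE 0.14, adjusted p = 0.0444, limma). Both EZH2 siRNA arrays were alike, and control 1 was much brighter than control 2. SERPINB3, a protease inhibitor of the serpin family, had 226 and 374 against 380 and 442 (mean -0.50, adjusted p = 0.0449, limma), so here the EZH2 siRNA arrays differed from each other. LRRTM3, a leucine-rich repeat membrane protein of neurons, had 236 and 289 against 400 and 351 (mean -0.52, adjusted p = 0.0444, limma).

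The changes of both pairs lay closer together for other genes. RBPMS, an RNA-binding protein, had 118 and 125 with EZH2 siRNA against 188 and 177 with control siRNA (-0.68 and -0.50). CYB5B, a cytochrome b5 of the outer mitochondrial membrane, had 245 and 278 against 370 and 384 (-0.60 and -0.46). VAPA, which tethers other membranes to the endoplasmic reticulum, had 140 and 139 against 189 and 208 (-0.43 and -0.58). MRS2, a magnesium channel of mitochondria, had changes of -0.55 and -0.44, and RAB27B, a GTPase of granule transport, -0.44 and -0.44. The fall was larger in pair 1 for AZIN1, which protects ornithine decarboxylase from degradation (-0.63 and -0.38), and for ALKBH2, which repairs alkylated DNA (-0.68 and -0.32). Of the genes that were higher, APLP2, an amyloid precursor-like protein, had 899 and 899 against 663 and 678 (0.44 and 0.41). The arrays of the JAK3 experiment were all brighter for APLP2, at 1029 and 1072 with JAK3 siRNA and 1027 and 1026 with its control. BHLHA9, a basic helix-loop-helix factor, had 165 and 166 against 124 and 123 (0.41 and 0.43). All of these passed the test with adjusted p of 0.0275 to 0.0444 (limma). In each the groups did not overlap, and of all genes 20.8% lay under both controls and 16.6% over both.

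The 2 small nucleolar RNAs went in opposite directions; both belong to the H/ACA class, which guides pseudouridylation. SNORA65 had 1445 and 1171 with EZH2 siRNA, against 922 and 759 with control siRNA, a rise of 0.65 in pair 1 and 0.63 in pair 2 (mean 0.64, SE 0.08, adjusted p = 0.0275, limma). SNORA2B had 77.9 and 71.3 against 112 and 110 (-0.52 and -0.62, mean -0.57, SE 0.08, adjusted p = 0.0275, limma). Of 131 small nucleolar RNAs tested, these were the 2 called, against 0.94% called of all genes. So few calls say nothing about small nucleolar RNAs as a class.

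**Figure D2:**
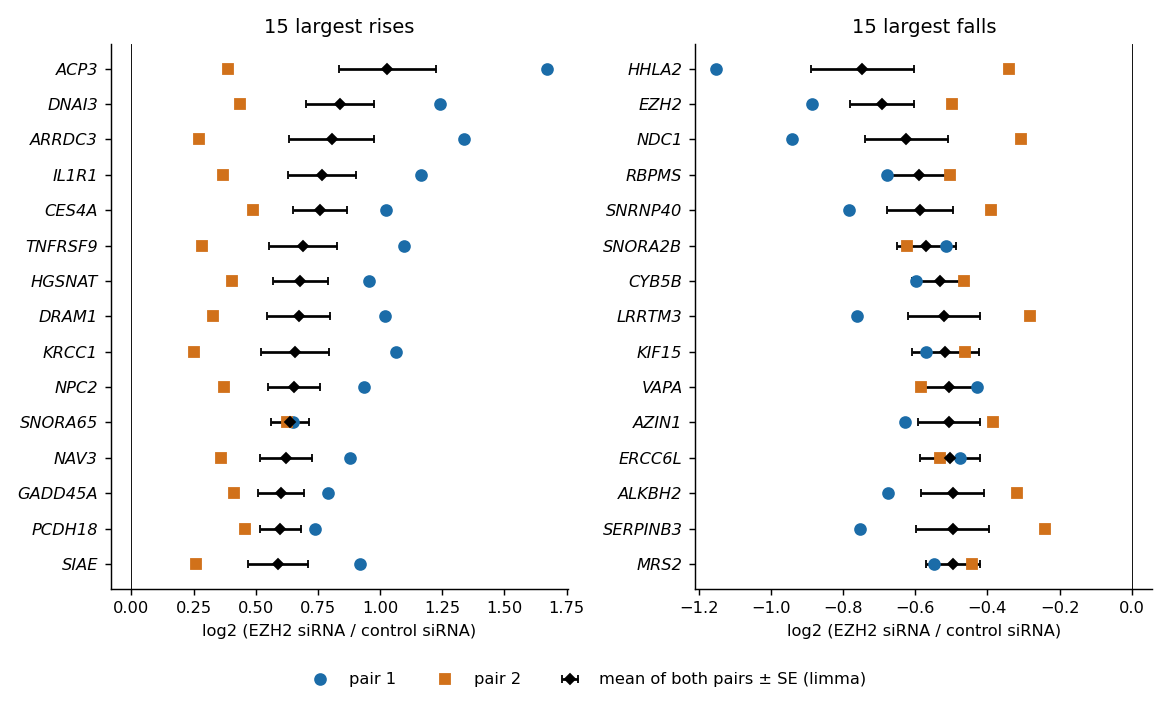
Log2 of EZH2 siRNA over control siRNA signal (x axis) for the 15 largest rises (left panel) and 15 largest falls (right panel) among called genes, with pair 1 as circles, pair 2 as squares and the mean of both pairs ± SE (limma) as diamonds. ACP3 has the widest gap between pairs (1.67 and 0.39), while the pairs of SNORA65, ERCC6L and MRS2 lie close together.

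Most genes of cell division lay below 0 in both pairs, with 4 calls over the lists of DNA replication, entry into S phase and mitosis. Over all genes tested 0.373% were called higher and 0.567% lower. The members of every list were chosen with earlier results of these data known. Shares within a list, here and below, therefore describe it and are no test of it. Before DNA is copied, CDC6 loads the MCM helicase at origins. Cyclin A2 (CCNA2), kinesins and checkpoint kinases such as BUB1 act in later steps of the cell cycle. CDC6 had signals of 214 and 272 with EZH2 siRNA, against 312 and 337 with control siRNA (mean log2 change -0.43, SE 0.08, adjusted p = 0.0341, limma). CCNA2 had 456 and 472 against 604 and 613 (mean -0.39, SE 0.08, adjusted p = 0.0473, limma), and BUB1 had 563 and 540 against 768 and 646 (mean -0.35, SE 0.07, adjusted p = 0.0473, limma). In all 3 genes both EZH2 siRNA arrays lay under both controls, as they did in 20.8% of all genes. The DNA that precedes these 3 start sites is shown because promoters of many cell-cycle genes carry CCAAT boxes, which bind the factor NF-Y. The sequences are the 250 bases before the start, from RefSeq on GRCh38.p14, at chr17:40287629-40287878 (plus strand) for CDC6, chr4:121823884-121824133 (minus strand) for CCNA2 and chr2:110678064-110678313 (minus strand) for BUB1, with CCAAT on either strand in capitals.
CDC6: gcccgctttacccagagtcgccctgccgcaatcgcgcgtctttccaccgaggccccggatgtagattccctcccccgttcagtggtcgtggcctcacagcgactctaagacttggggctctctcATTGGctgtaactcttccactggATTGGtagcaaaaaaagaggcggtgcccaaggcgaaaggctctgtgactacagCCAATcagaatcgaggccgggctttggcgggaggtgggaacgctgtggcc
CCNA2: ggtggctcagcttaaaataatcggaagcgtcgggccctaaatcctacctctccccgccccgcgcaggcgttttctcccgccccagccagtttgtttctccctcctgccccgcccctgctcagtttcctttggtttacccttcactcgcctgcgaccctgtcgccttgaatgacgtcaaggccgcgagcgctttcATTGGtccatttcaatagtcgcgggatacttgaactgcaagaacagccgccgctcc
BUB1: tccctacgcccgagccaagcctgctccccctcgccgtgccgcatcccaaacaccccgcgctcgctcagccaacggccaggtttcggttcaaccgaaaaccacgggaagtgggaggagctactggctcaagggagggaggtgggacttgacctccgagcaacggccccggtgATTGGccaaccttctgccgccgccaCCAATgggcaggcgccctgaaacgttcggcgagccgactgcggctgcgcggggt

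CDC6 holds 3 such boxes, CCNA2 holds 1 and BUB1 holds 2. Over the 11294 tested genes with a window in the table, 34.4% held CCAAT on either strand. Among the 32 mitosis genes with a window the share was 68.8% (22 genes), and among 37 DNA replication genes it was 54.1% (20 genes). The letters TTTGAA or TTCGAA, a form of the cell cycle homology region of mitotic promoters, were found on either strand in 17 of the 32 mitosis windows (53.1%), in 1 of the 37 DNA replication windows and in 10.3% of all. An E2F word (TTGGCGC or its forms TTCCCGC and TTCGCGC, or else TTGCCGC, on either strand) was found in 17 of the 37 DNA replication windows (45.9%), in 7 of the 32 mitosis windows (21.9%) and in 16.5% of all. Of the 72 called lower genes with a window, 31 held CCAAT (43.1%), 13 the homology region (18.1%) and 17 an E2F word (23.6%). These shares describe the lists and were not tested.

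Of 43 DNA replication genes tested, CDC6 was called lower and 0 were called higher. Their median log2 change was -0.31 in pair 1 and -0.10 in pair 2, against -0.03 and 0.01 over all genes tested. In both pairs 35 of the 43 lay below 0 (81.4%), against 28.3% of all genes. Of 24 regulators of the step into S phase, TFDP1, the dimerisation partner of E2F factors, was called lower, with 1270 and 1314 with EZH2 siRNA against 1698 and 1596 with control siRNA (mean -0.35, adjusted p = 0.0449, limma). The medians of those 24 genes were -0.15 and -0.14, and 15 of them lay below 0 in both pairs (62.5%).

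Of 38 mitosis genes, CCNA2 and BUB1 were called lower and 0 higher. Their medians were -0.31 in pair 1 and -0.16 in pair 2, all 38 lay below 0 in pair 1, and 36 did in both pairs (94.7%). The exceptions were CDC20, which activates the anaphase-promoting complex (-0.81 and 0.05), and CDC25C, a phosphatase that activates CDK1 (-0.17 and 0.13). Outside that list, KIF15, a spindle kinesin, had 140 and 143 with EZH2 siRNA against 208 and 197 with control siRNA (mean -0.52, adjusted p = 0.0341, limma). ERCC6L, a helicase that acts on DNA threads between separating chromosomes, had 105 and 104 against 146 and 150 (mean -0.50, adjusted p = 0.0284, limma). In RNA from a whole culture, fewer dividing cells and less transcript per cell cannot be told apart.

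The level of the mitosis list also differed between the controls of the 2 experiments. The median of its members, as log2 signal minus the mean of the 8 siRNA arrays, was -0.01 and 0.01 with EZH2 siRNA and 0.26 and 0.20 with its control siRNA. With JAK3 siRNA it was -0.14 and -0.21, and with its control siRNA -0.06 and -0.12. Both EZH2 siRNA arrays thus lay below their own controls and above the arrays of the other experiment. For DNA replication genes the medians were -0.17 and -0.04 with EZH2 siRNA and 0.09 and 0.04 with its control, and the controls of the JAK3 experiment had 0.10 and 0.05.

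**Figure D3:**
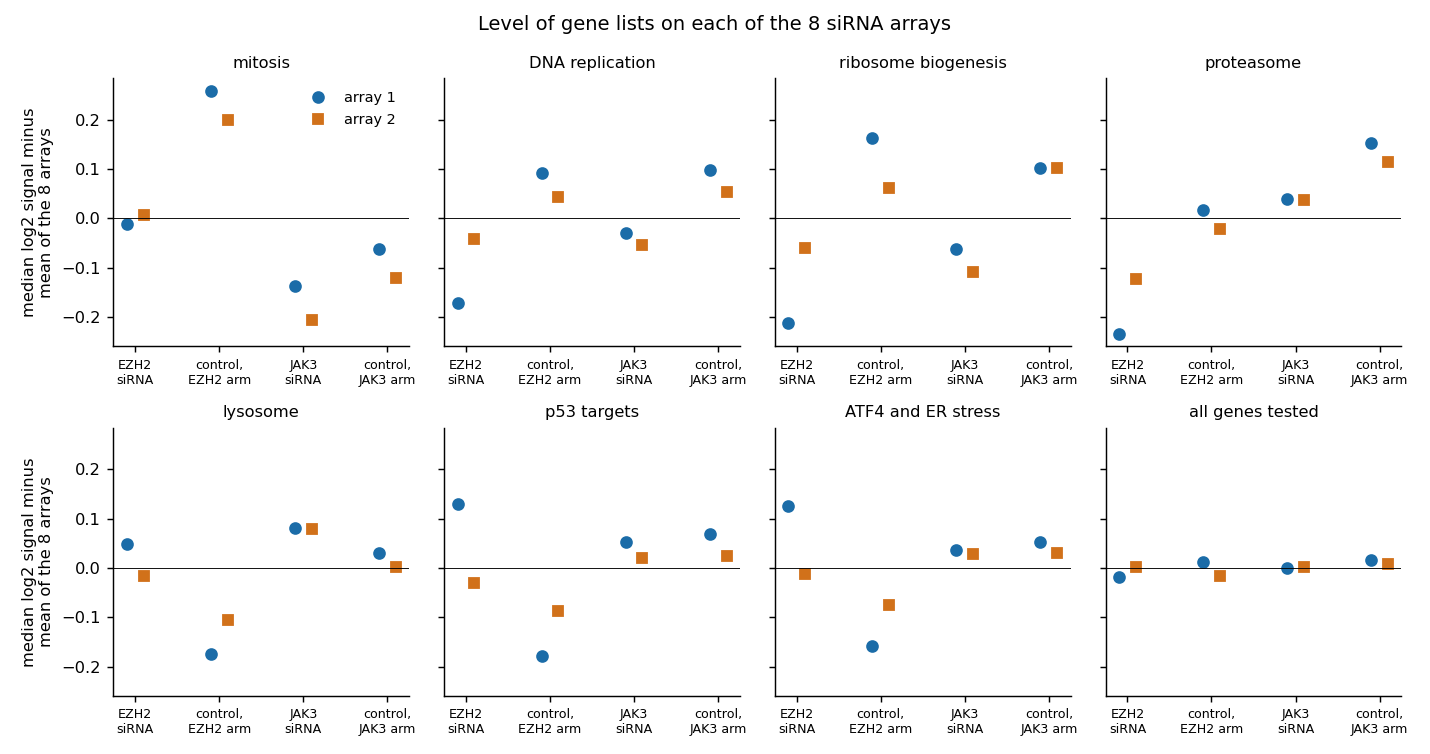
Median over list members of log2 signal minus the mean of the 8 siRNA arrays (y axis), for 7 gene lists and for all genes tested, on each array of 4 groups (x axis), array 1 as circles and array 2 as squares. Mitosis genes are highest on the controls of the EZH2 arm (0.26 and 0.20), and all genes tested stay between -0.02 and 0.02.

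Genes that hold cells out of the cycle lay more often above 0. Of 20 CDK inhibitor and quiescence genes tested, ARRDC3 was called higher and 0 lower, with medians of 0.19 in pair 1 and 0.03 in pair 2. CDKN1A, the p21 inhibitor of cyclin-dependent kinases and among the genes reported as silenced by EZH2, had 489 and 374 with EZH2 siRNA against 340 and 337 with control siRNA (mean 0.34, SE 0.09, adjusted p = 0.0865, limma). GADD45A, a stress sensor that slows the cycle after DNA damage, was called, with 183 and 186 against 106 and 140 (mean 0.60, SE 0.09, adjusted p = 0.0275, limma). Both EZH2 siRNA arrays lay over all 6 other siRNA arrays for GADD45A.

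Of 14 tested genes reported as silenced by EZH2 in other cells, 0 were called in either direction (limma; 1 had an unadjusted p under 0.05), 6 lay above 0 in both pairs (42.9%, against 23.5% of all genes) and 4 below 0 in both (28.6%, against 28.3%). Their medians were 0.02 and 0.03, and the median of the mean change turned to -0.006 when each array was centred on its median. CDKN1A had the smallest p, followed by TNFRSF10B, a death receptor, with 202 and 173 with EZH2 siRNA against 165 and 168 with control siRNA (adjusted p = 0.337, limma). A further 3 of the 17 measured members were too dim to be tested.

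Genes of the machinery for growth lay below 0 in most lists. Ribosome biogenesis had the lowest median in pair 1, at -0.42, with -0.10 in pair 2, and 22 of 26 members lay below 0 in both pairs (84.6%). NOP16, a nucleolar protein, was its call, with 299 and 335 with EZH2 siRNA against 468 and 411 with control siRNA (mean -0.47, SE 0.09, adjusted p = 0.0375, limma). Of 22 nucleotide and one-carbon genes 19 lay below 0 in both pairs (medians -0.31 and -0.12), and ADSL, a purine-synthesis lyase, was called, with 387 and 452 against 574 and 536 (mean -0.41, adjusted p = 0.0449, limma). Of 26 chaperones 22 did (medians -0.32 and -0.13). STIP1, which passes client proteins between heat-shock chaperones, was called with 763 and 744 against 1062 and 890, and CCT5, a subunit of the chaperonin that folds actin and tubulin, with 1129 and 1265 against 1600 and 1524 (adjusted p = 0.0496 each, limma).

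Of 29 proteasome genes tested, all lay below 0 in pair 1 and 23 in both pairs (79.3%), with medians of -0.29 and -0.12. The call was PSMC6, an ATPase of the regulatory particle that unfolds substrates. PSMC6 had 235 and 242 with EZH2 siRNA, against 326 and 324 with control siRNA, almost the same change in both pairs (-0.47 and -0.42, mean -0.45, SE 0.07, adjusted p = 0.0275, limma). The proteasome list also lay lowest on the EZH2 siRNA arrays among all 8, at -0.23 and -0.12, against 0.02 and -0.02 on its controls.

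Of 33 nuclear pore and transport genes, 27 lay below 0 in both pairs (81.8%, medians -0.29 and -0.11). NDC1, which anchors the pore in the membrane, had 345 and 414 with EZH2 siRNA, against 662 and 512 with control siRNA (mean -0.62, SE 0.11, adjusted p = 0.0375, limma). NUP205, a scaffold nucleoporin, had 496 and 581 against 688 and 697 (mean -0.37, adjusted p = 0.0449, limma). Of 37 spliceosome genes, 26 lay below 0 in both pairs (medians -0.24 and -0.05), and SNRNP40, a protein of the U5 particle, was called with 266 and 310 against 458 and 405 (mean -0.59, SE 0.09, adjusted p = 0.0275, limma). These 3 genes had both EZH2 siRNA arrays under both controls, as had 20.8% of all genes.

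Mitochondrial and metabolic lists had medians nearer to 0 in pair 1. Of 33 mitochondrial ribosome genes 0 were called (limma; 15 had an unadjusted p under 0.05) and 18 lay below 0 in both pairs (medians -0.19 and -0.14). The smallest p belonged to MRPL17, with 453 and 463 with EZH2 siRNA against 601 and 541 with control siRNA (adjusted p = 0.0612, limma), and to MRPL9, with 511 and 600 against 768 and 674 (adjusted p = 0.0838, limma). Of 31 respiratory chain subunits 0 were called (limma; 7 at an unadjusted p under 0.05; medians -0.17 and -0.02), and the 2 with the smallest p differed in sign: NDUFV2 had 401 and 438 against 498 and 549, and NDUFB5 had 797 and 765 against 578 and 696. Of 20 cholesterol synthesis genes EBP, a sterol isomerase, was called lower, with 466 and 466 against 654 and 565 (mean -0.38, adjusted p = 0.0444, limma). Of 26 hypoxia and glycolysis genes PGK1, phosphoglycerate kinase, was called lower, with 1071 and 1169 against 1610 and 1393 (mean -0.42, adjusted p = 0.0449, limma), while the list's medians had opposite signs (-0.10 and 0.03).

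The lysosome had the most calls of any list in the other direction. Lysosomes degrade proteins, lipids and glycans, and their genes often carry the CLEAR element, which binds the factor TFEB. Of 39 genes tested, 4 were called higher and 0 lower, against 0.373% and 0.567% of all genes. Above 0 in both pairs lay 27 (69.2%, against 23.5% of all genes), and the medians were 0.22 and 0.07. NPC2, which hands cholesterol out of the lysosome, had 1327 and 1169 with EZH2 siRNA, against 695 and 902 with control siRNA (mean 0.65, SE 0.11, adjusted p = 0.0275, limma). HGSNAT, which acetylates heparan sulfate for its breakdown, had 424 and 310 against 219 and 234 (mean 0.68, SE 0.11, adjusted p = 0.0275, limma). PSAP, the precursor of the saposins that help degrade sphingolipids, had 464 and 414 against 294 and 346 (mean 0.46, adjusted p = 0.0444, limma), and GAA, the acid alpha-glucosidase that degrades glycogen, had 172 and 170 against 128 and 132 (mean 0.39, adjusted p = 0.0444, limma). In all 4 genes both EZH2 siRNA arrays lay over both controls, as they did in 16.6% of all genes.

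Among the 4 called lysosome genes, the window was looked at singly for GAA and NPC2 only. That of NPC2 holds neither TCACGTGA, the core of the CLEAR element, nor CACGTG, and that of GAA is shown because it holds both. The 250 bases before its start, from RefSeq on GRCh38.p14 at chr17:80101331-80101580 (plus strand), have TCACGTGA in capitals.
GAA: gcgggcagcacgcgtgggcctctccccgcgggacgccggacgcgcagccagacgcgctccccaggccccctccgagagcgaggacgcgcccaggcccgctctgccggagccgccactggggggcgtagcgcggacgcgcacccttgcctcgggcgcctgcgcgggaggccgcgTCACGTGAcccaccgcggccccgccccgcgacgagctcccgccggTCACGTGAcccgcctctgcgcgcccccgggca

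The word TCACGTGA, the same on both strands, occurs there 2 times. It was found in 4 of the 27 lysosome genes with a window (14.8%), against 1.49% of all 11294 windows, and the shorter CACGTG that lies within it in 8 of the 27 (29.6%), against 8.55% of all. Of the 44 called higher genes with a window, 2 held TCACGTGA (4.55%) and 4 held CACGTG (9.09%). The lysosome median on each array, as log2 signal minus the mean of the 8 siRNA arrays, was 0.05 and -0.02 with EZH2 siRNA and -0.17 and -0.11 with its control. With JAK3 siRNA it was 0.08 on both arrays and with its control 0.03 and 0.00, so the controls of the EZH2 arm were the lowest of the 8 arrays.

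Autophagy and stress genes were less uniform. Of 27 autophagy genes DRAM1, a lysosomal membrane protein that p53 induces, was called higher, with 296 and 251 with EZH2 siRNA against 146 and 200 with control siRNA (mean 0.67, SE 0.13, adjusted p = 0.0442, limma), and the medians were 0.10 and 0.01. Of 23 p53 targets DRAM1 and GADD45A were called higher and 0 lower. The medians of the p53 targets were 0.31 in pair 1 and 0.03 in pair 2, where 12 genes lay above 0 and 11 below. Of 29 genes of the ATF4 and endoplasmic reticulum stress response 3 were called higher and 0 lower, with medians of 0.29 and 0.03. As log2 signal minus the mean of the 8 siRNA arrays, the controls of the EZH2 arm were the lowest arrays for both lists. They had medians of -0.18 and -0.09 for p53 targets and -0.16 and -0.07 for the ATF4 list.

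The 3 stress genes were as follows. DDIT3, the stress factor CHOP, had 118 and 92.4 with EZH2 siRNA, against 77.1 and 75.4 with control siRNA (mean 0.45, SE 0.09, adjusted p = 0.0444, limma). WARS1, tryptophanyl-tRNA synthetase, had 1169 and 1064 against 783 and 901 (mean 0.41, adjusted p = 0.0449, limma), and PSAT1, an enzyme of serine synthesis, had 572 and 556 against 431 and 459 (mean 0.34, adjusted p = 0.0487, limma). The amino acid response element TGATGNAAT was found on either strand in 0 of the 27 windows of this list and in 0.452% of all.

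**Figure D4:**
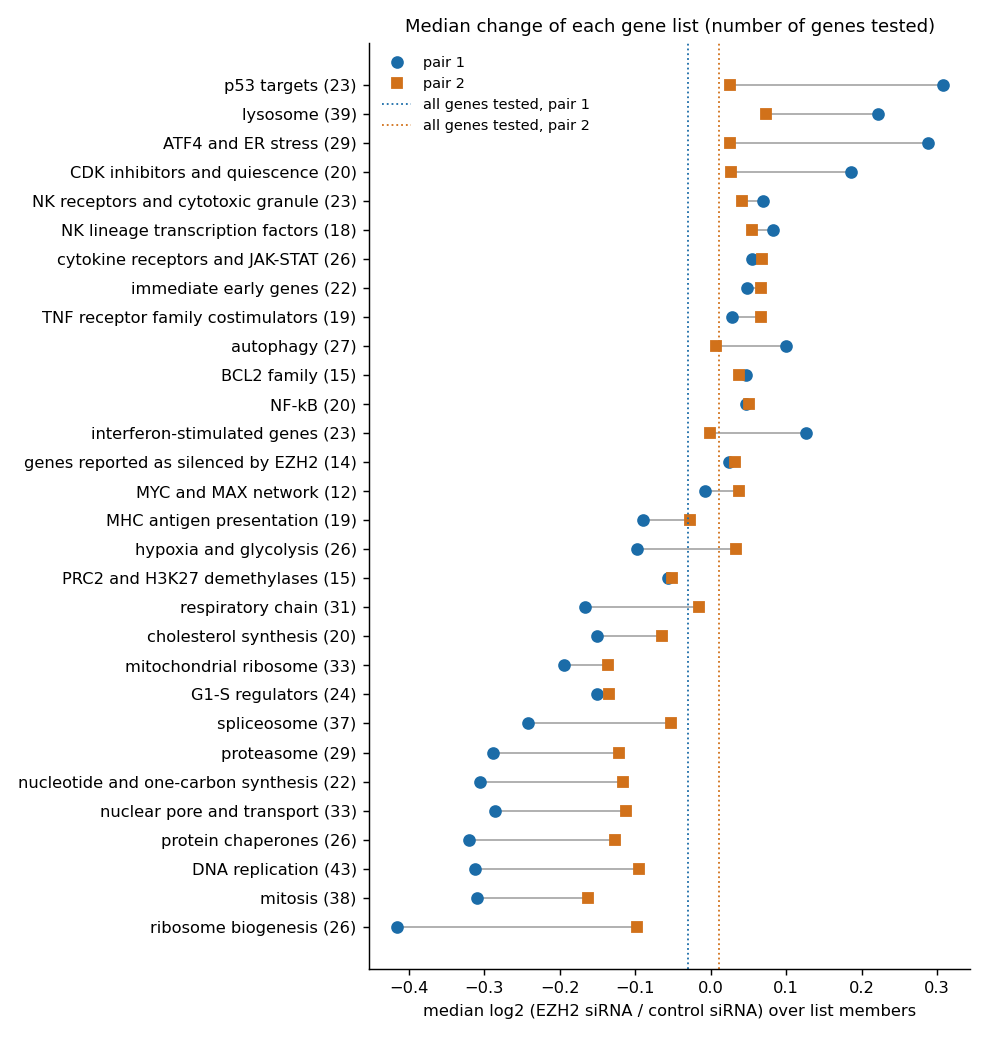
Median log2 of EZH2 siRNA over control siRNA (x axis) over the tested members of 30 gene lists, pair 1 as circles and pair 2 as squares, with dotted lines at the medians of all genes tested (-0.03 and 0.01) and the number of genes tested in brackets. Ribosome biogenesis, mitosis and DNA replication have the lowest medians over both pairs, p53 targets, the lysosome and the ATF4 and ER stress list the highest, and most lists lie nearer to 0 in pair 2.

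Genes of NK cell identity and immune signalling were called singly. NK cells kill through perforin and granzymes, and their state is set by factors such as T-bet, eomesodermin and ZEB2. Of 23 NK receptor and cytotoxic granule genes tested 0 were called (limma; 8 had an unadjusted p under 0.05), with medians of 0.07 and 0.04. Perforin (PRF1) came closest, with 3633 and 3010 with EZH2 siRNA, against 2210 and 2587 with control siRNA (mean 0.47, SE 0.10, adjusted p = 0.0501, limma), and NKG7, a granule membrane protein, had 1593 and 1701 against 1262 and 1468 (adjusted p = 0.0894, limma). ZEB2, a repressor needed for NK maturation, was the call among 18 lineage factors, with 469 and 422 against 289 and 341 (mean 0.50, SE 0.10, adjusted p = 0.0444, limma). Both arrays lay over all 6 other siRNA arrays for ZEB2.

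Of 20 NF-kB genes ICAM1, an adhesion molecule, was called higher, with 494 and 598 with EZH2 siRNA against 384 and 480 with control siRNA. Its change was alike in both pairs, 0.36 and 0.32 (adjusted p = 0.0449, limma). TNFRSF9 was the call among 19 TNF receptor family costimulators, and IL1R1 among 26 genes of cytokine receptors and JAK-STAT signalling. FOSL2, a subunit of AP-1, was the call among 22 immediate early genes, with 794 and 706 against 484 and 574 (mean 0.51, adjusted p = 0.0341, limma). BNIP3L, a mitophagy receptor, was the call among 15 BCL2 family genes, with 467 and 469 against 352 and 356 (mean 0.40, SE 0.07, adjusted p = 0.0291, limma). The arrays of the JAK3 experiment were all brighter for BNIP3L, at 502 and 504 with JAK3 siRNA and 500 and 496 with its control. The medians of these 5 lists lay between 0.03 and 0.07 in both pairs, against -0.03 and 0.01 over all genes.

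In 3 further lists 0 genes were called by limma. An unadjusted p under 0.05 was reached by 4 interferon-stimulated genes, 7 genes of MHC antigen presentation and 2 of the MYC and MAX network. Of 23 interferon-stimulated genes the smallest p belonged to IFI6, with 325 and 480 with EZH2 siRNA against 275 and 385 with control siRNA (adjusted p = 0.0838, limma), and to IFI27, with 69.1 and 71.3 against 63.3 and 58.5 (adjusted p = 0.191, limma). Of 19 genes of MHC antigen presentation they were TAPBP, the tapasin of peptide loading, with 833 and 628 against 610 and 542 (adjusted p = 0.0666, limma), and B2M, the light chain of class I molecules, with 4129 and 3389 against 2968 and 2986 (adjusted p = 0.0967, limma). Of 12 genes of the MYC and MAX network they were MLX, with 216 and 220 against 273 and 244.2 (adjusted p = 0.14, limma), and MXD1, with 119 and 94.6 against 78.2 and 99.0 (adjusted p = 0.291, limma).

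A selection of the other called genes follows, chosen after their values were seen and from no fixed list, so their roles show no theme of the calls; others are not named. Those that were lower included TIPIN (mean log2 change -0.46), which protects replication forks, DNA2 (-0.37), a helicase and nuclease of fork repair, MCM9 (-0.34), PCLAF (-0.40), which binds the PCNA clamp, SKA3 (-0.49) and KNSTRN (-0.41) of the kinetochore and spindle, TACC3 (-0.40), OIP5 (-0.40), UBE2S (-0.43), which extends ubiquitin chains for the anaphase-promoting complex, and the histone genes H4C6 (-0.44) and H2BC14 (-0.38). POLR3K (-0.49) and POLR3G (-0.36), subunits of RNA polymerase III, GTF3A (-0.35), its factor for 5S RNA genes, POP1 (-0.49) and POP4 (-0.37), proteins of RNase P, and BRIX1 (-0.45) and WDR46 (-0.45), factors of ribosome assembly, were also lower. Those that were higher included GRN (0.40), the lysosomal protein progranulin, PLD3 (0.49), a lysosomal exonuclease, CBLB (0.52), a ubiquitin ligase that restrains lymphocyte activation, SMAD3 (0.38), which carries TGF-beta signals, IDH2 (0.41), SPOCK1 (0.55), LAMB3 (0.47) and HBP1 (0.39). Their adjusted p lay between 0.0275 and 0.0486 (limma).

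The pairs differed in size. Of the 136 calls 117 were larger in pair 1 (86%), as were 58.5% of all genes, and the median absolute change of the calls was 0.52 in pair 1 and 0.34 in pair 2. Across the 14466 genes the changes of both pairs correlated weakly, with r = 0.17, and 51.8% had the same sign. Those genes share the arrays, so this r is a description. With the pairs tested singly, the spread being taken from the 4 arrays of the JAK3 experiment, pair 1 gave 1511 calls (10.4%; 645 higher, 4.46%, and 866 lower, 5.99%), with 3586 genes at an unadjusted p under 0.05. Pair 2 gave 0 (0.0%), with 1639 genes at an unadjusted p under 0.05 (limma). Among the 54 higher calls control 1 was above control 2 in 8 (14.8%, against 56.5% of all genes), and among the 82 lower calls in 53 (64.6%). The EZH2 siRNA arrays differed as well. EZH2 siRNA 1 was above EZH2 siRNA 2 in 34 higher calls (63.0%) and 20 lower calls (24.4%), against 41.8% of all genes.

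**Figure D5:**
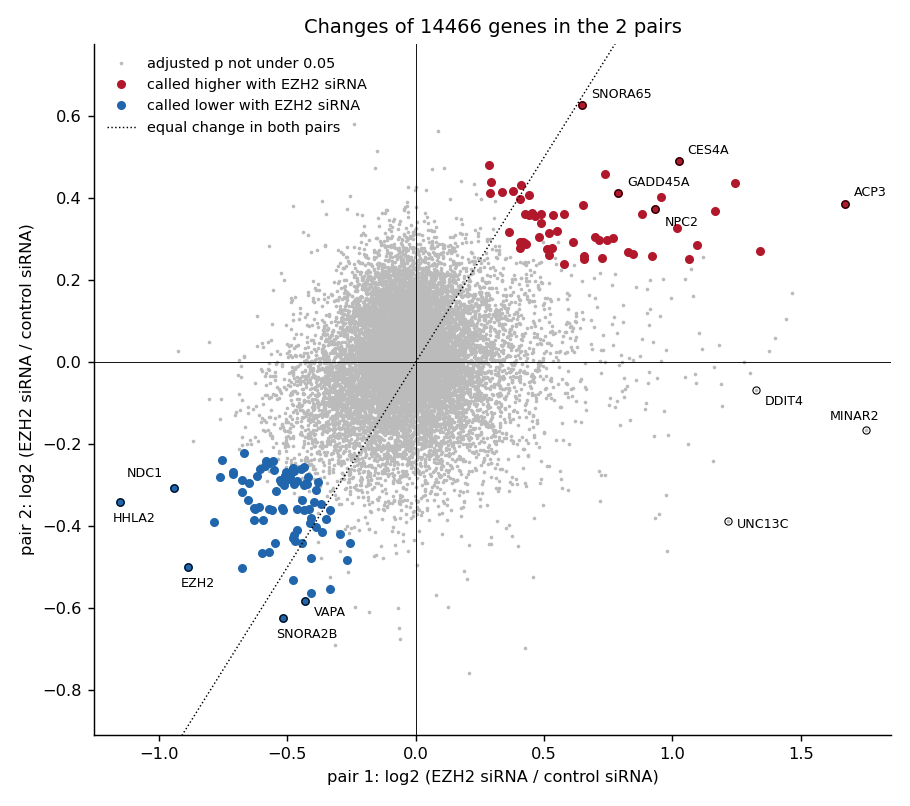
Log2 of EZH2 siRNA over control siRNA in pair 1 (x axis) and pair 2 (y axis) for the 14466 genes tested, with the 54 called higher and 82 called lower in colour and a dotted line where the changes are equal. Most calls lie on the pair 1 side of the line; SNORA65 lies on it, and MINAR2, UNC13C and DDIT4 have log2 changes of 1.75, 1.21 and 1.33 in pair 1 and negative ones in pair 2.

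The difference between the pairs was tested directly. It passed for 144 genes (0.995%), of which 120 had the more positive change in pair 1 (0.83%) and 24 in pair 2 (0.166%); 130 were larger in pair 1 and 94 had opposite signs. Of the 136 calls 9 were among them, a larger share than the 0.995% of all genes: ACP3, DNAI3, ARRDC3, IL1R1, TNFRSF9, KRCC1, SIAE, HHLA2 and NDC1. Single arrays of the EZH2 experiment were assumed to vary like the quieter ones of the JAK3 experiment in this test (array weights 0.644 against 1.545 to 1.56), so its calls are a ranking more than an established difference. Genes of the lists that passed it are named after their values were seen.

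Cytotoxic genes were among those that differed. GZMB, the main granzyme of these cells, had a change of 0.86 in pair 1 and -0.04 in pair 2 (difference 0.90, adjusted p = 0.0087, limma). Its signals were 5142 and 5313 with EZH2 siRNA against 2835 and 5473 with control siRNA, so control 1 was the array that stood apart, while the controls of the JAK3 experiment had 3805 and 3871. CD226, an activating receptor, showed the same form, with 999 and 976 against 580 and 929. KLRC1, an inhibitory lectin receptor, had 318 and 213 against 161 and 241.

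Among cell-cycle genes, CCNB1 (cyclin B1), PLK1 (a mitotic kinase) and CDC20 had the more negative change in pair 1. CCNB1 had 276 and 366 with EZH2 siRNA against 504 and 418 with control siRNA (difference -0.68, adjusted p = 0.0353, limma), PLK1 had 555 and 619 against 969 and 659 (difference -0.71, adjusted p = 0.0247, limma), and CDC20 had 396 and 550 against 691 and 531 (difference -0.85, adjusted p = 0.0152, limma). Control 1 was the brightest of the 4 arrays for all 3. Of the quiescence genes BTG1, an antiproliferative factor, had 396 and 296 against 205 and 296 (difference 0.95, adjusted p = 0.0208, limma), and TXNIP, which inhibits thioredoxin, had 475 and 331 against 244.1 and 288 (difference 0.76, adjusted p = 0.0312, limma). BCL6, a transcriptional repressor, had 252 and 202 against 117 and 192 (difference 1.03, adjusted p = 0.0176, limma), and ID2, needed for NK cell development, had 771 and 532 against 462 and 644 (difference 1.01, adjusted p = 0.00613, limma).

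The comparison with JAK3 siRNA shows how much of the response differed from that of another knockdown in the same line; the 2 experiments share no control array. The direct test of the difference passed for 53 genes (0.366%), 33 more positive with EZH2 siRNA (0.228%) and 20 less (0.138%), and for 10 of the 136 calls. GADD45A was among these 10: it had 183 and 186 with EZH2 siRNA against 106 and 140 with its control, and 139 and 141 with JAK3 siRNA against 146 and 162 with its control (difference 0.74, SE 0.13, adjusted p = 0.0355, limma). TNFRSF9 rose with EZH2 siRNA, and had 970 and 983 with JAK3 siRNA against 1333 and 1255 with its control (difference 1.10, SE 0.19, adjusted p = 0.0355, limma). SNORA2B had 157 and 143 against 122 and 109 in the JAK3 experiment (difference -0.95, SE 0.12, adjusted p = 0.00305, limma).

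Other genes with a difference had the opposite sign in both experiments. SULF1, a sulfatase that edits heparan sulfate, was higher with EZH2 siRNA, with 831 and 732 against 567 and 587 (0.55 and 0.32), and had 737 and 709 with JAK3 siRNA against 987 and 986 (difference 0.88, adjusted p = 0.00312, limma). SERPINB13, a protease inhibitor, had 620 and 750 against 508 and 537 with EZH2 siRNA, and 416 and 401 against 716 and 670 with JAK3 siRNA (difference 1.15, adjusted p = 0.000846, limma). TPT1, the abundant growth-linked protein TCTP, had 1129 and 976 against 1572 and 1170, and 1738 and 1785 against 1421 and 1524 (difference -0.63, adjusted p = 0.0355, limma). VAPA, DMRT1, PEX5L and JAZF1 were the remaining 4.

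For the other 126 calls the test did not show a difference, which does not show that both knockdowns acted alike. After JAK3 siRNA 103 of the 136 calls had the same sign (75.7%), as had 58.8% of all genes. In the JAK3 experiment 200 genes were called (1.38%), and 10 genes were called in the same direction in both, which is 7.35% of the calls with EZH2 siRNA and 5.0% of those with JAK3 siRNA. They were RBPMS, LRRTM3, SERPINB3, ADAM19, RASGRP1, POLR3G and MYBL1, which were lower, and SMAD3, ADGRG1 and SNORA65, which were higher. ADAM19, a metalloprotease, had mean changes of -0.46 with EZH2 siRNA and -0.97 with JAK3 siRNA, and SMAD3 had 0.38 and 0.47.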

How the data were processed

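RNA from NKYS cells was measured on single-colour arrays. Per the labels' protocols, total RNA was taken with TRIzol and a column, and 100 ng was amplified and labelled with biotin. The authors deposited 1 linear signal intensity per probe set, and the normalization, background correction and summarising of probes are not given in the sources used here. Of 28869 probe sets, 19310 have 1 gene symbol in the platform annotation, 1752 have several and 7807 none; 19279 of the 19310 matched RefSeq and 0 symbols changed. A gene was represented by its single-symbol probe set with the highest mean, and genes under the 30th percentile of signal over the 8 siRNA arrays were left out, which kept 14466 of 18377. Array medians lay between 60.28 and 62.46.

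Log2 intensities were fitted with limma 3.58.1 in R 4.3.3 (lmFit and eBayes, two-sided, Benjamini-Hochberg adjustment, threshold 0.05) over 8 siRNA arrays, with the pair as a block in the EZH2 arm and 3 residual degrees of freedom. Pair-specific effects were fitted with the spread of the 4 JAK3-arm arrays alone (2 degrees of freedom). The pairs come from the titles, which tie each control to its EZH2 siRNA array; deviations of paired arrays from their group means correlated with r = -0.086. The labels do not say that arrays of a group are separate cultures, so p-values reflect spread among these few arrays, possibly technical, and the number of arrays limits the precision. The procedure was tested on simulated data: no planted change was called with the wrong sign, but false calls made up a larger share than the threshold allows, and most of the smaller planted differences between pairs were missed. The simulated arrays of both experiments varied alike, with no effect of the pair, and each comparison was simulated once. The simulation therefore does not cover the unequal spread of the real experiments. Figures were drawn with matplotlib 3.10.9 under Python 3.11.15.

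The text names EZH2 and the marker genes CDC6, CCNA2, GADD45A, NPC2 and PSMC6, the core PRC2 members, the 15 largest rises and falls among called genes, up to 5 called members of each list (or the 2 with the smallest p), the 8 genes per direction with the largest change shared by both pairs, and the 5 genes per direction with the smallest p for the difference between pairs. The marker genes, the lists and their members were chosen with earlier results of these data known. Alternatives were quantile normalization, centring on the median, other filters, averaged probe sets, trend and robust fitting, array weights, the 4 arrays alone, no block, and leaving out each array.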

Additional observations from a re-analysis of the deposited data

Results flagged for a closer look

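The genes below passed limma's test of the difference between the effects of EZH2 siRNA in the 2 pairs. Each pair is 1 array against 1 array, and the spread comes from the JAK3 experiment, whose arrays were quieter (array weights 1.545 to 1.56, against 0.644), so these p-values can be too small. Each value is the log2 change in pair 1 minus that in pair 2. Among called genes that were higher, the difference was 1.29 for ACP3, 1.07 for ARRDC3, 0.81 for TNFRSF9, 0.81 for KRCC1, 0.8 for DNAI3, 0.8 for IL1R1 and 0.66 for SIAE. Among those that were lower it was -0.81 for HHLA2 and -0.64 for NDC1. All 9 had the same sign in both pairs.

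Genes not called over both pairs passed too. MINAR2 had a difference of 1.92 (1.75 in pair 1 and -0.17 in pair 2), UNC13C of 1.6 (1.21 and -0.39), DDIT4, a stress-induced inhibitor of mTORC1, of 1.39 (1.33 and -0.07), MYOF of 1.34 (1.40 and 0.06) and MXD1, a partner of MAX, of 0.67 (0.61 and -0.07). In the other direction HECW2, a ubiquitin ligase, had -0.95 (-0.93 and 0.03), the pseudogene DPPA3P2 had -0.86 (-0.48 and 0.38), CDC20 had -0.85 (-0.81 and 0.05), FAM131C had -0.82 (-0.24 and 0.58) and ATP5MC1, a subunit of ATP synthase, had -0.74 (-0.52 and 0.22). Adjusted p over these genes ran from 0.00151 to 0.0475 (limma). The lower correlation within pair 1 (0.9884, against 0.9955 in pair 2) stands beside every difference; its part was not tested.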

How the results depend on the processing

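All 136 called genes kept their direction in each alternative in which they were tested, but not all stayed called. In most alternatives the direction was bound to hold, so this says little. Other filters, trend and robust fitting, array weights, the 4 arrays alone and no block leave the log2 change of a gene as it was. Leaving out an array leaves a single pair, and genes were called for changes that both pairs share. Against 54 higher and 82 lower, there were 30 and 26 with quantile normalization, 31 and 161 with centring, 75 and 155 with trend and robust fitting, and 121 and 96 with the 4 arrays alone. With no filter or with array weights 0 genes were called, with smallest adjusted p of 0.109 and 0.116 (limma), and leaving out an array of the EZH2 arm gave 0 to 645 higher and 0 to 866 lower. Without array 1 of either group, 1639 genes had an unadjusted p under 0.05. Without the pair as a block there were 6 higher and 14 lower, 20 of the 136 calls, and the paired arrays' deviations correlated with r = -0.086.

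The change of EZH2 was -0.693 with no filter (adjusted p = 0.109, limma) and with array weights (adjusted p = 0.116, limma), and -0.887 to -0.499 when an array was left out. The difference between pairs passed for 283 genes with centring, 48 with no filter and 518 with trend and robust fitting, against 144. The difference from JAK3 siRNA passed for 15 genes with no filter, 29 without the pair as a block, and 67 to 323 when an array was left out, against 53. With no filter more genes are tested; the cause of the other shifts was not tested. The number of arrays, 2 a group, limits the precision. Of 35 list medians, centring turned the sign of 4, quantile normalization of 1, and leaving out array 1 or array 2 of 2 and 3.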
